A study of Mus musculus with 2 samples.

Results

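The genes described here encode core, linker and variant histones. They were chosen by name: every probe set that the platform annotation assigns to 1 gene whose symbol starts as histone symbols do (H1f, H2a, H2b, H3f, H3c, H4c, Hist, Macroh2a) or is Cenpa. This gave 52 probe sets for 36 genes, of 16563 genes with a usable value in the table. Mouse embryonic stem (ES) cells, grown without feeders in serum with leukaemia inhibitory factor, were infected with a retrovirus carrying, behind a U6 promoter, a short hairpin either against the histone variant H2A.B or of a control sequence. Both cultures were kept in G418 for 2 to 4 weeks, so infection and drug selection are common to both. The exact time of each culture in G418 is not given. Each group had 1 Affymetrix array, the knockdown one numbered 1 in its title, and values are RMA intensities on the log2 scale; no difference below has a replicate error or a test. Where a pair of values is given for a probe set, the control array comes first and the knockdown array second. The 3 H2A.B genes on chromosome X, H2ab1, H2ab2 and H2ab3, were named by 0 probe sets, so the depletion itself was not checked here.

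DNA in the nucleus is wound around octamers of the core histones H2A, H2B, H3 and H4, and linker histone H1 binds where the DNA enters and leaves. Most core and several H1 genes lie in clusters, are transcribed in S phase and give messages that end in a stem-loop in place of a poly(A) tail. Variants such as H2A.Z, macroH2A, H3.3 and CENP-A come from single genes with polyadenylated messages and enter chromatin outside replication or at particular places; H2A.B is a short H2A variant that gives loosely wrapped nucleosomes. On these arrays the cDNA was primed with oligo(dT), which copies polyadenylated RNA, so a low intensity of a cluster gene is no measure of its stem-loop message.

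No histone gene differed by 2-fold between the arrays: 0 of 36 were higher and 0 were lower, where 4.04% of all genes did in either direction (1.13% higher, 2.91% lower). The 36 genes are too few to tell 0 from 4.04%. At 1.5-fold the count was again 0, against 9.23% of all genes (2.98% higher, 6.24% lower). Of the 36 genes, 23 were read from the first section of the deposited table, described below. Among the 9398 genes of that section, 9 were 2-fold higher and 65 lower, and at 1.5-fold 44 were higher and 95 lower. The differences, knockdown minus control on the log2 scale, ran from -0.51 for H2bu2 to 0.44 for H2aw, and 25 of the 36 genes (69.4%) lay within 0.1 of 0, as did 57.8% of all genes. Within the first section the shares were alike, 82.6% of its histone genes and 83.8% of all its genes. The median was -0.02 over the histone genes and -0.0056 over all genes, with 21 histone genes below 0 (58.3%, and 52.4% of all genes). By symbol, 6 of the genes were linker genes, 13 core genes of the large clusters and 17 variants or other genes outside these clusters, and 16 of the 36 had a mean intensity at or above the median over all genes, 6.73. Both ends of the range belong to core-type genes of the small histone cluster on chromosome 11.

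The promoters of the 3 genes with the largest differences are shown because their directions differ: H2aw was higher on the knockdown array, H2bu2 and H2bc22 lower. Each is the 250 bases before the annotated start, 5′ to 3′, from RefSeq on GRCm38.p6, all on the plus strand, at chr11:58954435-58954684 for H2aw, chr11:58948661-58948910 for H2bu2 and chr13:21787238-21787487 for H2bc22. Capitals mark the octamer ATGCAAAT, known for H2B promoters, the CCAAT box and TATAAA, each searched on both strands.
H2aw: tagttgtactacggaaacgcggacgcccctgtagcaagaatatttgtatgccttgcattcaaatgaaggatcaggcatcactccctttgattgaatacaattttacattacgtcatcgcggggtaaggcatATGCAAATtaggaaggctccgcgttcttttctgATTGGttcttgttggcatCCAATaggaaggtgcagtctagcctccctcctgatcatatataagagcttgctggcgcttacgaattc
H2bu2: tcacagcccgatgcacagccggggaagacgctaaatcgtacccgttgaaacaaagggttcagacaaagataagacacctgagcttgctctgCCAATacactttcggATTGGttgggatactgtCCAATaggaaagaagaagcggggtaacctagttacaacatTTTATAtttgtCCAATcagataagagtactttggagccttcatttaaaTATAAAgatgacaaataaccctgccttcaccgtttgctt
H2bc22: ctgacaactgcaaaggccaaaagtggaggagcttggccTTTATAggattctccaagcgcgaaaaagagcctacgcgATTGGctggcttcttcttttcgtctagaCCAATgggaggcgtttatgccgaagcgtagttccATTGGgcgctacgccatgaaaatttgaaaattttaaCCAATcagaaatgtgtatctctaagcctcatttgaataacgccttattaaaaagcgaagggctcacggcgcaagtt

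H2aw held the octamer, 119 bases before the start, with CCAAT boxes at 86 and 68 bases. H2bu2 held 4 CCAAT boxes and 2 TATAAA matches, the nearer at 39 bases, and no octamer in this window. H2bc22 held 4 CCAAT boxes, the nearest at 76 bases, and 1 TATAAA match, on the minus strand at 212 bases. Its window reaches back to H2ac22, an H2A gene on the opposite strand that no single-gene probe set reads. A promoter entry was found for 31 of the 36 genes. A CCAAT box was present in 19 of them (61.3%) and in 34.5% of all 27025 promoters, TATAAA in 8 (25.8%, against 13.0%) and the octamer in 3, H2aw, H2bc18 and H3f3b (9.68%, against 1.61%). Matches are letters in a window and were not tested as sites.

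The H2A and H2B genes of the chromosome 11 cluster lay at opposite ends of the range. H2aw, which encodes an H2A close to the canonical protein, had 8.61 in control and 9.05 in knockdown cells, a difference of 0.44 or 1.35-fold. Its 2 dimmer probe sets had 5.64 and 6.12, and 2.92 and 3.28. All 3 probe sets were thus higher on the knockdown array, by 0.36 to 0.48. The 2 brighter ones are neighbouring rows of the deposited table (20171 and 20172), and the dimmer of these carries the suffix s of shared probe sets. The dimmest, far below the median intensity, is row 40007. Both places lie in the parts of the table with wider differences, described next. H2bu2, which encodes an H2B, had 5.73 and 5.22 on its single probe set, a difference of -0.51 or 1.43-fold lower. Between these genes the annotation places the pseudogene H2bu1-ps and Trim17. Differences of these sizes were not rare: 13.0% of all genes differed by at least as much as H2aw and 10.8% by at least as much as H2bu2.

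The deposited table is not alike along its length. In a middle section, between rows 18185 and 33642, 1455 control values repeat a nearby value to the last digit, 1115 of them a control value and 340 a value of the knockdown array. The median absolute difference over genes was 0.04 in the section before it, 0.22 within it and 0.23 after it. Of the histone genes, 23 were read from the first section, 4 from the middle and 9 from the last. All 23 of the first section lay within 0.2, from -0.12 to 0.11, with a median absolute difference of 0.05. H2aw and H1f4 came from the middle section and H2bu2 and H2bc22 from the last. Within its own section, 26.8% of genes differed by at least as much as H2aw, 22.7% as much as H2bu2, 30.0% as much as H2bc22 and 37.0% as much as H1f4. The part of the section in these differences was not tested.

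**Figure D1:**
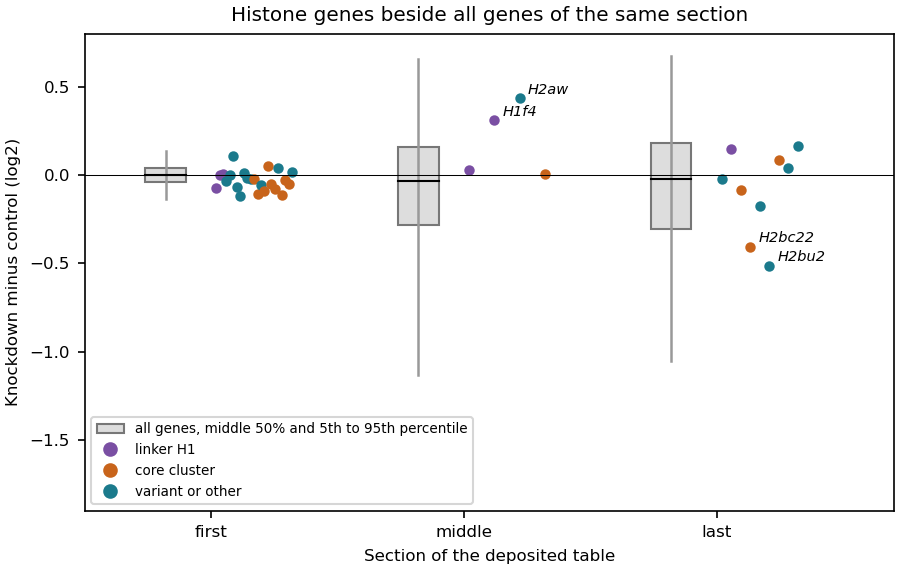
Difference of each histone gene (points; knockdown minus control, log2) beside all genes of the same section of the table (grey box, middle 50% of the genes; line, 5th to 95th percentile). The 23 points of the first section lie between -0.12 and 0.11, and the 4 labelled genes H2aw, H1f4, H2bc22 and H2bu2 come from the wider middle and last sections.

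Among variants of H2A, both H2A.Z genes differed by less than 0.1 between the arrays. H2az1, which encodes the H2A.Z of promoters and enhancers, had 13.51 in control and 13.49 in knockdown cells (-0.02). H2az2, which encodes its close relative, had 11.18 and 11.16 (-0.02), and its dimmer probe set 6.83 and 6.77 (-0.05). Both probe sets of H2az2 were slightly lower on the knockdown array. H2ax, whose product is phosphorylated around DNA breaks, had 11.36 and 11.37 (0.01). H2aj, a replication-independent H2A gene, had 10.28 and 10.24 (-0.03), with -0.06 and -0.05 on its 2 dimmer probe sets. All 3 H2aj probe sets lay below 0, by less than 0.1.

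The macroH2A genes encode H2A variants with a large extra domain, found on the inactive X chromosome and at silent genes. Macroh2a1 had 10.71 in control and 10.72 in knockdown cells (0.02). Macroh2a2 had 9.59 and 9.75 (0.16) on its brighter probe set and 6.28 and 6.26 (-0.01) on the dimmer one. The brighter probe set came from the last section and the dimmer one from the first, so the difference of Macroh2a2 was seen on 1 of its 2 probe sets.

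Testis-type histone genes, most of them relatives of H2A.B in the short H2A group or H2B genes of spermatids, lay below the median intensity of genes, 6.73. H2al2a had 3.92 and 4.03 (0.11), H2al1m 4.47 and 4.47 (0.0034), H2al3 3.38 and 3.32 (-0.07) and H2ap 3.82 and 3.70 (-0.12). The H2B relatives H2bl1 and H2bfm had 3.83 and 3.77 (-0.05), and 3.30 and 3.12 (-0.17). Signal over background was not analysed, so these 6 values do not show whether the genes were transcribed on either array. Markers of testis germ cells, listed as a check, were below that median on 3 of 6 genes (Prm2, Tnp1 and Tnp2). The other 3 were past it: Acrv1 had 7.26 and 7.38, Prm1 7.26 and 7.28, and Ddx4 8.62 and 8.59. The check was thus split.

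The H3 variants differed by less than 0.05 on their brightest probe sets. H3f3a and H3f3b encode the same protein, H3.3, the replacement histone of transcribed genes and telomeres. H3f3a had 12.30 in control and 12.34 in knockdown cells (0.04), but 12.04 and 11.99 (-0.04) on its other probe set. A further probe set that names H3f3a together with its pseudogene had 13.33 and 13.15 (-0.18). The H3f3a probe sets therefore had no common direction. H3f3b had 12.45 and 12.49 (0.04); its other probe set has no usable knockdown value, since it falls in a series of numbers that rise by 1. Cenpa, which encodes the H3 variant that marks the centromere, had 10.64 and 10.61 (-0.02), with 4.95 and 5.09 (0.14) on its dimmer probe set.

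**Figure D2:**
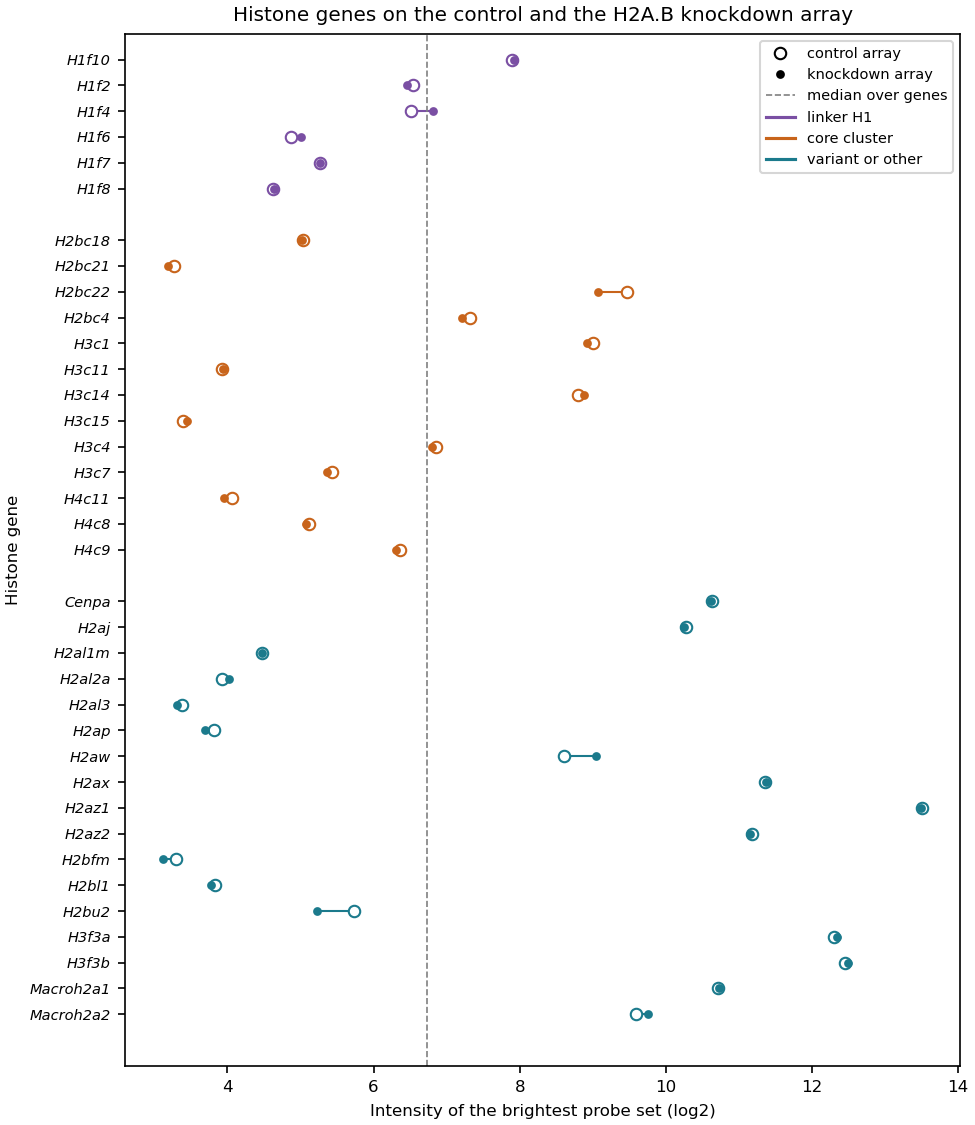
Log2 intensity of the brightest probe set of each of the 36 histone genes on the control array (open) and on the knockdown array (filled), by class, with the median over all genes, 6.73, as a dashed line. The pairs overlap for most genes, and those of H2aw, H2bu2, H2bc22 and H1f4 are the widest apart.

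Linker histone genes had 6 of their 10 RefSeq members named by a probe set for 1 gene, with 4 above and 2 below 0 (median 0.02). H1f4, a main H1 of dividing cells, had 6.51 in control and 6.82 in knockdown cells (0.31), and 4.30 and 4.34 (0.05) on its dimmer probe set. Both were higher on the knockdown array. The control value of the brighter one is among those that recur digit for digit further down the table, and without it H1f4 differed by 0.05. H1f2, another H1 of dividing cells, had 6.54 and 6.46 (-0.07), and 5.45 and 5.46 (0.01). H1f10, a replication-independent H1, had 7.89 and 7.92 (0.03). The germ cell H1 genes were below the median intensity of genes: H1f8 of the oocyte had 4.63 and 4.63, H1f7 of the spermatid 5.27 and 5.27, and H1f6 of the testis 4.86 and 5.01 (0.15). H1f0, H1f1, H1f3 and H1f5 were not analysed here.

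Core histone genes of the large clusters on chromosomes 13 and 3 had 13 of 57 RefSeq members named by a probe set for 1 gene. Of these 13, 10 were lower and 3 higher on the knockdown array, by small amounts, with a median of -0.05 and a range from -0.40 to 0.09. Below 0 were 76.9% of them, and 52.4% of all genes. On chromosome 13, 8 of 9 were below 0, and on chromosome 3, 2 of 4. Cluster genes of a type are near-identical in sequence, so a probe set named for one may read its neighbours, and these genes are not independent of each other. Among those read from the first section 8 of 9 were below 0, where 51.2% of all genes of that section were.

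H2bc22 was the cluster gene with the largest difference, with 9.47 in control and 9.07 in knockdown cells (-0.40). Its dimmer probe set, in the first section, had 6.06 and 5.96 (-0.10), so both were lower by unequal amounts. The brighter carries the suffix a and the dimmer the suffix x, so H2bc22 has no value once suffixed probe sets are left out. H2bc4 had 7.32 and 7.21 (-0.11), H2bc18 5.04 and 5.01 (-0.02) and H2bc21 3.26 and 3.18 (-0.08). Counted by histone type, a grouping made after the values were seen, all 7 H2B genes lay below 0, H2bu2, H2bl1 and H2bfm among them (median -0.11). Of these, H2bc21, H2bl1 and H2bfm lay far below the median intensity of genes. H2bc18 (-0.02) and H2bl1 (-0.05) differed by less than the median SD among probe sets of a gene, 0.06, so such signs carry little. The 11 H2A genes were 6 above and 5 below (median 0.0034).

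The H3 and H4 cluster genes lay between -0.11 and 0.09. H3c1 had 9.01 in control and 8.92 in knockdown cells (-0.09) on a probe set shared between similar genes, and 2.92 and 2.99 (0.07) on its own. H3c4 had 6.85 and 6.80, and 4.24 and 4.19. Both H3c4 probe sets differed by -0.05, and their differences were equal to 4 decimals when rounded (-0.0503), at unlike brightness. H3c14 had 8.80 and 8.88 (0.09) on a probe set with the suffix s of shared probe sets. Its other probe set was left out for a repeated control value. H3c15 had 3.39 and 3.45 (0.05), H3c7 5.44 and 5.36 (-0.08) and H3c11 3.93 and 3.94 (0.01). All 3 H4 genes were below 0: H4c9 had 6.36 and 6.31 (-0.05), H4c8 5.11 and 5.08 (-0.03) and H4c11 4.06 and 3.95 (-0.11). Probe sets that name H2ac18 and H2ac19 together, outside the members, differed by -0.13 and -0.04.

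**Figure D3:**
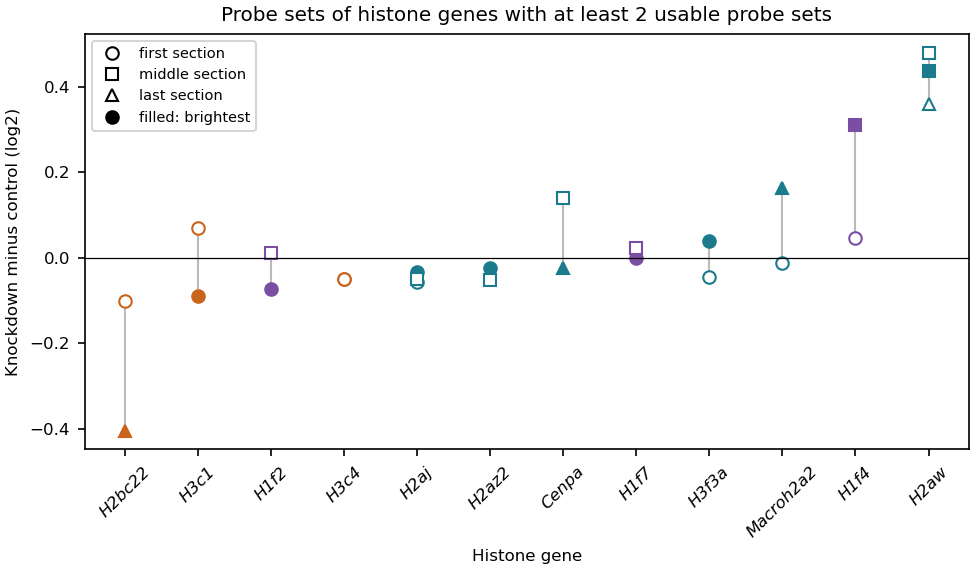
Difference (knockdown minus control, log2) of every usable probe set of the 12 histone genes with at least 2 of them; filled symbols are the brightest probe set of each gene and the shape gives the section of the table. H2aw lies apart on all 3 probe sets, while H3c1, H1f2, Cenpa, H1f7, H3f3a and Macroh2a2 have probe sets on both sides of 0.

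Probe sets of a gene give the only spread within these arrays, and it is technical. Of the 12 histone genes with at least 2 usable probe sets, 6 had all of them on one side of 0: H2bc22, H3c4, H2aj, H2az2, H1f4 and H2aw. The same share was not computed over all genes, so 6 of 12 is a count only and marks no gene as consistent. Within a gene, the SD of its probe sets' differences had a median of 0.06 over these 12 genes and of 0.06 over 6826 genes. The other 24 histone genes rest on 1 usable probe set.

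**Figure D4:**
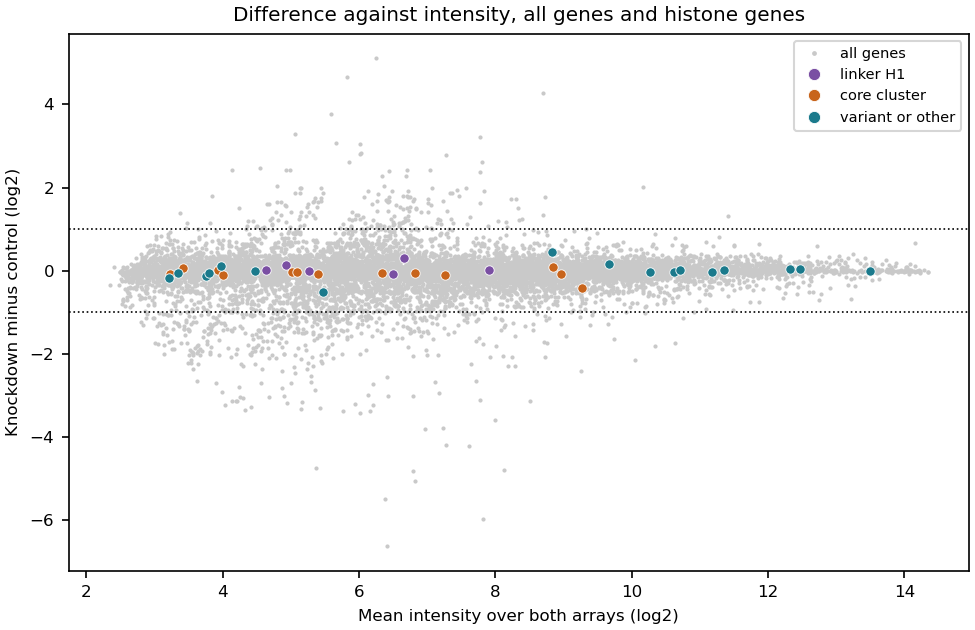
Difference (knockdown minus control, log2) against the mean log2 intensity for all 16563 genes (grey) and the 36 histone genes (coloured by class); dotted lines mark 2-fold. Histone genes lie between -0.51 and 0.44 over the whole range of intensities, inside both lines.

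Genes that make and process histone messages, a list of 26 names, had 23 with a usable value, all past the median intensity. None differed by 2-fold, where 4.04% of all genes and 1.96% of the genes past the median intensity did. The list is too short to tell 0 from that share. In it 15 were above and 8 below 0 (median 0.02). Hinfp, a transcription factor of H4 genes, had 7.88 in control and 7.39 in knockdown cells (-0.49) on its single probe set. Slbp, which binds the stem-loop and guides the message to translation, had 10.997 and 10.63 (-0.37), but 0.13 and 0.09 on its 2 dimmer probe sets. Lsm11, of the U7 particle that cuts histone messages, differed by -0.32 and on its dimmer probe set by 0.40. Nfya, a subunit of the factor that binds CCAAT boxes, differed by 0.37, with -0.19 and -0.13 on its dimmer probe sets. Slbp, Lsm11 and Nfya thus had no direction shared by their probe sets. The value of Hinfp was read from the middle section and the brightest probe sets of Slbp, Lsm11 and Nfya from the last, where differences were wider. The part of the section in them was not tested.

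S phase genes, a list of 25 with 24 usable and 23 past the median intensity, were 15 above and 9 below 0 (median 0.02). Of them 0 differed by 2-fold, where 4.04% of all genes and 1.96% of those past the median intensity did. This list is also too short to tell 0 from that share. After Slbp, which this list shares, the flap endonuclease gene Fen1 had the largest difference (0.36, below the median intensity). Mcm2 of the replicative helicase (0.25, from the middle section) and Ccne1, which encodes cyclin E1 (0.20), came next. Pcna, the sliding clamp of replication, had 13.27 and 13.24.

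The labelled cell type was checked on 9 of 10 listed ES cell markers, all past the median intensity of genes. Pou5f1 had 12.65 and 12.64, Sox2 12.38 and 12.41, Nanog 11.79 and 11.69, and Dppa5a 14.24 and 14.22. Zfp42 had 10.14 and 10.12, Klf4 11.14 and 11.30, Utf1 11.45 and 11.52, Dppa4 11.11 and 11.10, and Esrrb 11.14 and 11.47; Tdgf1 had no usable value. Fibroblast markers, 4 of 8 past that median, had mean intensities of 6.48 in control and 6.46 in knockdown cells, and neural markers, 2 of 4 past it, 6.64 and 6.53. Single markers lay on both sides of 0: Fbln1 differed by -0.69, Col1a1 by 0.25 and Dcn by 0.26 among the fibroblast genes, and Pax6 by -0.78 (9.66 and 8.88) and Nes by 0.33 among the neural ones. On their brightest probe sets Fbln1 and Pax6 thus differed by more than any histone gene did, as did the testis marker Prm2 (0.64). Fbln1 has 2 other usable probe sets and Pax6 has 3, and their values are not given here. Esrrb was read from the middle section, Fbln1, Dcn and Nes from the last, and Col1a1 and Pax6 from the first. The part of these markers in the histone values was not tested.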

How the data were processed

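One value table holds both arrays. Per the submitters' processing notes the authors made its log2 intensities with RMA (version and array background settings not given in the sources used here); the scale is not stated and was taken as log2 from the control column, which runs from 0.801 to 14.5. In the deposited knockdown column 616 values of a series rising by 1 and 2 others above 20 are no log2 intensities (other unit) and were left out, as were 1455 control values identical to one of either column within the 20 preceding rows (1115 to a control value, 340 to a knockdown value). This left 43045 of 45118 probe sets. The number of arrays limits the precision.

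The platform annotation gave gene names: 28898 name 1 gene, 551 several and 15669 none. Symbols and chromosomes came from RefSeq (GRCm38.p6), which held all 36 histone genes. The probe set brightest on the mean of both arrays stands for a gene. Differences are knockdown minus control, with no test and a rule of 2-fold. Classes follow symbols: H1f are linker genes, H2ac, H2bc, H3c and H4c core cluster genes, and the rest variant or other genes.

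The genes named are all linker and variant or other genes, those past the median intensity, and those at 1.5-fold or with 3 probe sets. Up to 4 of the supply and S phase lists are named too. Pcna, Fbln1, Col1a1, Dcn, Pax6, Nes, Acrv1, Prm1, Prm2, Ddx4, Tnp1, Tnp2 and the dim cluster genes were added after their values were seen. Members and lists were chosen with earlier results of these data known. The procedure was tested on simulated data. Python 3.11.15, pandas 2.3.3 and statsmodels 0.14.6 were used.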

Additional observations from a re-analysis of the deposited data

How the results depend on the processing

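The counts of 0 histone genes at 2-fold, higher or lower, held under each of the 8 alternatives run: medians across probe sets, no suffixed (s, x, a) probe sets (30 genes left), genes past the median intensity (16 left), median or lowess centring, repeated control values kept, both values of each repeated pair left out, and the 1.5-fold rule. The median difference stayed between -0.03 and -0.0030 under the 7 that give one. Single genes moved more. Among the 28 genes named by rule, with the median over probe sets 5 moved by more than the median SD among probe sets of a gene, 0.06, and the sign turned for 3 (Cenpa 0.06, H1f7 0.01 and H3f3a -0.0021). Without suffixed probe sets the sign turned for Cenpa (0.14), H3c1 (0.07) and H3f3a (-0.04). Centring turned H1f7 (0.0053 by the median, 0.0020 by lowess) and H2ax (-0.0045 by lowess). H2aw and H2bu2 kept their signs under the 6 alternatives that were computed for single genes. H2bu2 lies below the median intensity and has 1 probe set, and only the centrings changed its value. No paired analysis was possible because each group has 1 array, and leaving out a replicate was not possible for the same reason. Dim values near the background of the arrays cannot show a loss, since signal over background was not analysed.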
